A study of Mus musculus with 15 samples.

Results

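Genes for extracellular ATP and adenosine handling were examined as a group of 8, taken by symbol from a table of 17594 genes: Nt5e, Entpd1, Adora2a, Ada, Adk, P2rx7, P2rx4 and Slc29a1. They encode enzymes, receptors and a transporter, and Ada and Adk were listed under adenosine metabolism inside the cell. All 8 were in the table and all 8 passed the filter on low values. The table came from bulk RNA-seq of cells sorted from mouse spleen, in which regulatory T cells (Treg, CD4+ T cells that carry Foxp3 and restrain immune responses) and conventional CD4+ T cells (Tconv) were taken from animals with and without a conditional knockout of Hpgd, the gene of the enzyme that breaks down prostaglandin E2. There were 4 libraries of Treg KO, 4 of Treg WT, 4 of Tconv KO and 3 of Tconv WT, all on the C57BL/6 background. KO animals carried the knockout allele crossed to FOXP3-Cre-YFP, in which the Foxp3 locus drives the recombinase, and WT animals are labelled wild-type; the labels do not say whether WT animals carried the recombinase, and give no age. Since the labels do not tie libraries to separate animals, the p-values measure the spread between these libraries, which may be technical.

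ATP leaves stressed or activated cells and acts on P2X and P2Y receptors as an alarm signal. CD39, encoded by Entpd1, removes phosphates from ATP and ADP to give AMP, and CD73, encoded by Nt5e, turns AMP into adenosine. Adenosine acts on T cells mainly through the A2a receptor, which raises cAMP, and is removed by uptake and by conversion to inosine or AMP. Treg of the mouse are known for surface CD39 and CD73.

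Each value below is a count divided by 1 size factor per library, called a normalised count. Libraries held 2635841 to 4710769 reads in Treg KO, 6426186 to 10039211 in Treg WT, 2949385 to 10335227 in Tconv KO and 6603688 to 11115156 in Tconv WT. Hpgd itself had 0 reads in Treg KO, 1 read in all of Treg WT, 0 in Tconv KO and 0 in Tconv WT, so its loss was not detectable at this depth. A count of 0 allowed up to 0.193 CPM in Treg KO. Foxp3 averaged 4046 normalised counts in Treg KO, 4502 in Treg WT, 40.8 in Tconv KO and 17.1 in Tconv WT. Xist lay between 8644 and 19007 in the 8 KO libraries and at most at 5.52 in the 7 WT libraries, while Ddx3y, a Y-linked gene, was 0 in every KO library and at least 1154 in every WT library. KO and WT therefore also differ in sex throughout. The sample numbers in the titles also form 1 block for WT and another for KO, and the labels do not say what the blocks stand for. Genotype, sex and number block cannot be told apart in any comparison of KO with WT.

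The promoter windows of the 3 members with the largest differences between Treg and Tconv are shown. These genes were picked for those differences, and whether they vary together within a group was not tested. They are RefSeq windows of build GRCm38.p6, from 250 bases before to 50 bases after each start, on the plus strand for all 3 genes, written 5′ to 3′. Capitals mark GGGCGG, the Sp1 box, and TGACG, the core of the cAMP response element, on either strand, so that CCGCCC and CGTCA are marked too. Nt5e has 1 listed start (chr9:88327359-88327658). Entpd1 start 1 is at chr19:40612116-40612415 and its start 2 at chr19:40659520-40659819. P2rx7 start 1 is at chr5:122643677-122643976 and its start 2 at chr5:122650133-122650432.
Nt5e: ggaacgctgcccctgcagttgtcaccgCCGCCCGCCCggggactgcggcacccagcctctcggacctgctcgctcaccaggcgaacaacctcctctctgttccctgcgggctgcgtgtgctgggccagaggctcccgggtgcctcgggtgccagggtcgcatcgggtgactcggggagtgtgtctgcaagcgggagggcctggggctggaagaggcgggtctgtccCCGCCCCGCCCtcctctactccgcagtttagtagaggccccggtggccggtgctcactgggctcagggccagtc
Entpd1 start 1: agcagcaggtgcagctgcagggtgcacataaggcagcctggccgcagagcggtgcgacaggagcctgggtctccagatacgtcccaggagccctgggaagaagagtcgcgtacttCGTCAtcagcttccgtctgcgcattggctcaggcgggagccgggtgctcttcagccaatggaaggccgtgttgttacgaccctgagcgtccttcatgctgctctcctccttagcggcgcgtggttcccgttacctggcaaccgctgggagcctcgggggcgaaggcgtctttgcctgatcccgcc
Entpd1 start 2: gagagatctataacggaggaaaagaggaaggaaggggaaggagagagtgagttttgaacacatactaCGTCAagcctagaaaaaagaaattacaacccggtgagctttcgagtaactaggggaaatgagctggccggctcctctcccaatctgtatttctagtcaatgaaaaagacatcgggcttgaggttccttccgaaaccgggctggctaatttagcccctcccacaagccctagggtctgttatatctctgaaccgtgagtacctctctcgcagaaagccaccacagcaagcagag
P2rx7 start 1: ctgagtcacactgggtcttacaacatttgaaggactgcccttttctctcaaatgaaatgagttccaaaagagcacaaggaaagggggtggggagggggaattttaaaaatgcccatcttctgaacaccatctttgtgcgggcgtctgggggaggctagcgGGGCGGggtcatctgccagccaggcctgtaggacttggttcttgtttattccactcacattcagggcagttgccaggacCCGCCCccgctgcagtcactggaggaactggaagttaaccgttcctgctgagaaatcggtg
P2rx7 start 2: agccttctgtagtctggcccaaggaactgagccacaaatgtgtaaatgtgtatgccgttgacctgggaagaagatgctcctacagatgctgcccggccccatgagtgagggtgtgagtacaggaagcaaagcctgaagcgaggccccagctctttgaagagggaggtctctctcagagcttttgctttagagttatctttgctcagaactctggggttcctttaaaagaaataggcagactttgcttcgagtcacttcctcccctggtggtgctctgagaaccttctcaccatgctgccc

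The windows have little in common. Nt5e held 4 Sp1 boxes, overlapping in pairs, and P2rx7 start 1 held 2, whereas P2rx7 start 2 and both Entpd1 windows held 0. TGACG occurred 1 time in each Entpd1 window and 0 times in those of Nt5e and P2rx7. GC content was 71.0% for Nt5e, 64.0% for Entpd1 start 1, 48.7% for Entpd1 start 2, 53.3% for P2rx7 start 1 and 51.7% for P2rx7 start 2. Of all 32851 promoter windows in the RefSeq table, 35.7% held GGGCGG and 20.8% held TGACG on either strand. Over the 17 windows of the 7 members with an entry, neither TGACGTCA, the full cAMP response element, nor TGTTTAC, a forkhead motif, occurred (0 windows each), against 1.79% and 3.65% of all windows. With shares this low, 0 in 17 windows does not show a depletion. A match or its absence describes these letters only. The table gives 1 value per gene, so transcripts from the 2 starts of Entpd1 or of P2rx7 cannot be told apart.

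Transcripts of Nt5e and Entpd1 were more abundant in Treg than in Tconv, in both genotypes. Only RNA was measured, so levels of protein or enzyme activity are not known here. Nt5e (ENSMUSG00000032420.8, chromosome 9, 88327197 to 88372092, plus strand, GRCm38) had 2920, 2841, 2566 and 1882 normalised counts in the 4 Treg KO libraries and 2510, 2674, 2475 and 2077 in the 4 Treg WT libraries. It had 1743, 1160, 932 and 541 in Tconv KO and 911, 962 and 848 in Tconv WT. Every Treg library lay above every Tconv library, KO or WT, while the Treg KO values spanned those of Treg WT. Nt5e was 2.50-fold higher in Treg KO than in Tconv KO (log2 fold change 1.32 ± 0.25 SE, limma adjusted p = 8.5e-04) and 2.67-fold higher in Treg WT than in Tconv WT (1.42 ± 0.27 SE, adjusted p = 0.0014). Fold changes are on the scale of log2(value + 1), and adjusted p-values are Benjamini-Hochberg over all 11314 genes tested.

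Entpd1 (ENSMUSG00000048120.16, chromosome 19, 40612366 to 40741602, plus strand) was far less abundant. It had 341, 351, 306 and 219 normalised counts in Treg KO, against 331, 302, 273 and 343 in Treg WT. The Tconv KO libraries had 315, 123, 80.8 and 33.9, and the Tconv WT libraries 103, 96.4 and 74.2. The first Tconv KO library reached into the Treg KO range, so those groups overlapped, whereas Treg WT and Tconv WT did not. The difference passed the test in both genotypes, at 2.92-fold in KO (log2 1.55 ± 0.44 SE, adjusted p = 0.014) and 3.42-fold in WT (log2 1.77 ± 0.47 SE, adjusted p = 0.015). In KO the call was lost when only these groups entered the fit (adjusted p = 0.081) and with DESeq2 (log2 1.15, adjusted p = 0.060); in WT it was lost without the Tconv WT library at 74.2 (adjusted p = 0.065).

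**Figure D1:**
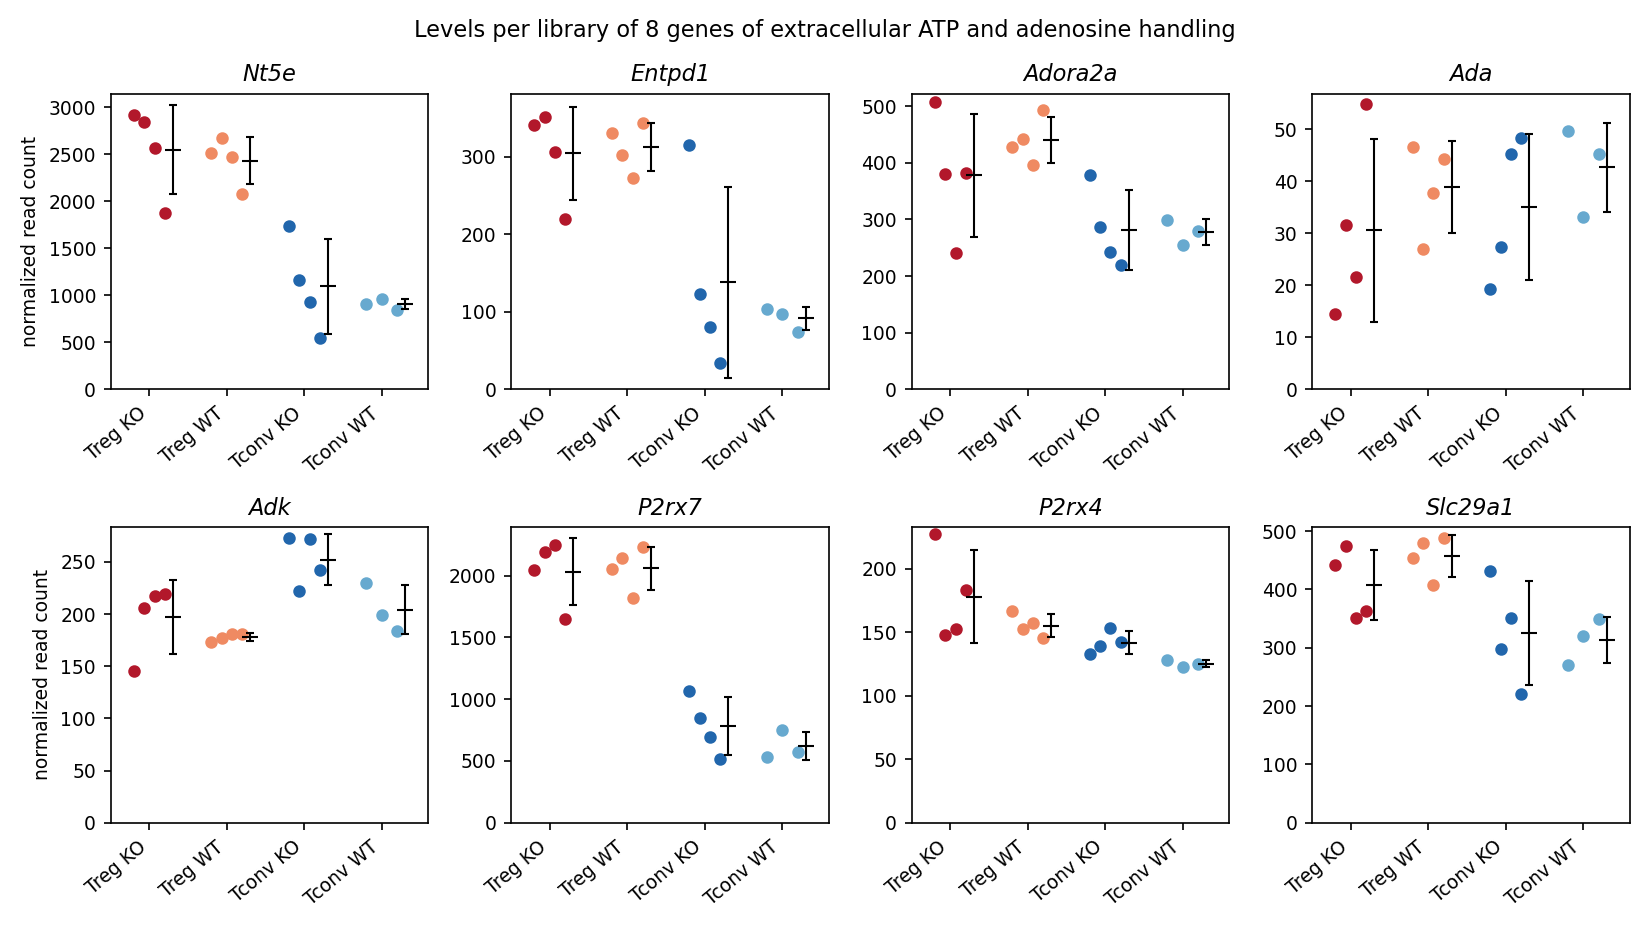
Normalised count (count divided by the library's size factor) of each of the 8 genes in each library; points are libraries, the black dash is the group mean and the bar its SD (n = 4, 4, 4 and 3 for Treg KO, Treg WT, Tconv KO and Tconv WT). Nt5e and P2rx7 form separate Treg and Tconv ranges, while Ada overlaps in all groups and Entpd1 in Tconv KO runs between 33.9 and 315.

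Adora2a (ENSMUSG00000020178.6, chromosome 10, 75316877 to 75334784, plus strand), which encodes the A2a receptor, had 508, 380, 241 and 382 normalised counts in Treg KO and 428, 443, 396 and 493 in Treg WT. It had 379, 286, 242 and 219 in Tconv KO, against 299, 255 and 280 in Tconv WT. All Treg WT libraries lay above all Tconv WT libraries, but 1 Treg KO library, at 241, fell within the Tconv KO range. Adora2a RNA was 1.58-fold higher in Treg WT than in Tconv WT (log2 0.66 ± 0.21 SE, limma adjusted p = 0.035). In KO the difference was 0.41 ± 0.19 and missed the threshold (limma adjusted p = 0.12). The KO difference passed with the GC trend removed (adjusted p = 0.0095), with library weights (0.011), without the Treg KO library at 241 (0.0099) and without the first Tconv KO library (0.026). The WT call was lost when any of 6 single libraries was left out, with adjusted p between 0.063 and 0.13. It was the one adenosine receptor above the filter. Over all 15 libraries, Adora1 had 2 reads and Adora3 had 19, and Adora2b had 0 reads among 96882584, which allows up to 0.0310 CPM.

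Of the P2X receptors, channels opened by ATP, P2rx7 went the same way as Nt5e and Entpd1. P2rx7 (ENSMUSG00000029468.17, chromosome 5, 122643911 to 122691432, plus strand), which needs high ATP and can open a large pore, had 2044, 2193, 2247 and 1648 normalised counts in Treg KO and 2051, 2139, 1816 and 2228 in Treg WT. It had 1068, 848, 690.0 and 519 in Tconv KO and 535, 747 and 575 in Tconv WT. The lowest Treg library stood clear of the highest Tconv library. P2rx7 was 2.67-fold higher in Treg KO than in Tconv KO (log2 1.42 ± 0.18 SE, adjusted p = 2.3e-05) and 3.35-fold higher in Treg WT than in Tconv WT (1.74 ± 0.19 SE, adjusted p = 9.3e-06).

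P2rx4 (ENSMUSG00000029470.15, chromosome 5, 122707544 to 122729738, plus strand), a channel sensitive to lower ATP, starts 16.1 kb beyond the end of P2rx7 on the same strand. Its differences between Treg and Tconv had smaller estimates than those of its neighbour, a contrast that was not tested. It had 228, 148, 153 and 183 normalised counts in Treg KO, 167, 152, 157 and 145 in Treg WT, 133, 139, 154 and 142 in Tconv KO and 128, 123 and 125 in Tconv WT. Treg WT stood above Tconv WT in every library, by 0.31 ± 0.13 on the log2 scale, but missed the threshold (adjusted p = 0.12); it passed when only these groups entered the fit (adjusted p = 0.014), with reads thinned to 1 depth (0.020), with library weights (0.0044) and without the Treg KO library at 228 (0.045). Treg KO and Tconv KO overlapped, with a difference of 0.30 ± 0.12 (adjusted p = 0.063) that passed with DESeq2 (adjusted p = 0.044) and without the Treg KO library at 148 (0.025) or at 153 (0.030). The other 5 P2X genes did not pass the filter, with 2 to 54 reads each over all libraries.

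Of the genes that clear adenosine, the transporter in WT was the one called higher in Treg. Slc29a1 (ENSMUSG00000023942.15, chromosome 17, 45585200 to 45599606, minus strand), the equilibrative transporter ENT1, had 442, 474, 351 and 364 normalised counts in Treg KO and 453, 480.0, 407 and 488 in Treg WT. It had 432, 299, 351 and 220.1 in Tconv KO and 270.3, 319 and 348 in Tconv WT. Treg WT and Tconv WT did not overlap, and Treg KO overlapped Tconv KO. Slc29a1 was 1.46-fold higher in Treg WT than in Tconv WT (log2 0.55 ± 0.18 SE, adjusted p = 0.042), a call lost with no filter on low values (adjusted p = 0.056) and without the Tconv WT library at 270.3 (adjusted p = 0.19); leaving out any of 6 other libraries also ended it. In KO the difference was 0.36 ± 0.16 (adjusted p = 0.11), which passed with the GC trend removed (adjusted p = 0.033), with library weights (0.039) and without the first Tconv KO library (0.016). An antisense gene, Gm17080, lies over Slc29a1 and has no row in the table; whether counting used strand is not known here, so its reads cannot be told apart from those of Slc29a1.

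Adk (ENSMUSG00000039197.10, chromosome 14, 21052574 to 21448569, plus strand), adenosine kinase, which turns adenosine back into AMP, ran the other way. It had 145, 206, 218 and 219 normalised counts in Treg KO, 173, 177, 181 and 181 in Treg WT, 273, 222, 272 and 242 in Tconv KO and 230, 199 and 183 in Tconv WT. All Treg KO libraries lay below all Tconv KO libraries, and all Treg WT libraries below all Tconv WT libraries. Adk was lower in Treg KO than in Tconv KO by a log2 fold change of -0.37 ± 0.12 SE (adjusted p = 0.034), and the WT difference of -0.19 ± 0.13 missed the threshold (adjusted p = 0.38). The KO call was lost when only these groups entered the fit (adjusted p = 0.12), with reads thinned to 1 depth (0.22) and with library weights (0.062). It was also lost without the Treg KO library at 145 (0.094) or the Tconv KO libraries at 273 (0.071) or 272 (0.090). Leaving out both the first and the last Tconv KO library ended it too (0.13).

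Ada (ENSMUSG00000017697.3, chromosome 2, 163726584 to 163750239, minus strand), adenosine deaminase, which turns adenosine into inosine, was the least counted member, with 10 to 87 reads per library. It had 14.5, 31.5, 21.5 and 54.8 normalised counts in Treg KO, 46.6, 26.9, 37.8 and 44.3 in Treg WT, 19.2, 27.3, 45.3 and 48.4 in Tconv KO and 49.7, 33.2 and 45.4 in Tconv WT. All 4 groups overlapped. The difference was -0.26 ± 0.36 between Treg KO and Tconv KO (adjusted p = 0.62) and -0.14 ± 0.39 between Treg WT and Tconv WT (adjusted p = 0.87), with 95% intervals of -1.03 to 0.51 and -0.98 to 0.69.

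Counted together, 3 members were higher, 1 was lower and 4 were not called in Treg KO against Tconv KO, where 31.4% of all genes tested were called (15.8% higher, 15.6% lower). In Treg WT against Tconv WT, 5 were higher, 0 lower and 3 not called, against 18.1% of all genes (10.0% higher, 8.06% lower). Groups did not overlap for 3 members in KO, where this held for 24.1% of all genes, and for 7 members in WT, where it held for 41.1%. The median log2 fold change of the members was 0.38 in KO and 0.60 in WT, beside medians over all genes of -0.01 and -0.02. Nt5e, Entpd1 and P2rx7 were called in both genotypes, which is 75.0% of the 4 KO calls and 60.0% of the 5 WT calls. The share of calls held in both genotypes was not counted over all genes, so these percentages have no background beside them. In these bulk samples, fewer cells expressing a gene and less RNA per cell cannot be told apart.

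Markers of other cells also differed between Treg and Tconv. Of the B cell markers, Cd79b was the one above the filter, with mean normalised counts of 135 in Treg KO, 78.3 in Treg WT, 11.5 in Tconv KO and 4.91 in Tconv WT, while Ms4a1 was at most at 6.69 in any library. Summed CD8 T and NK cell markers (6 of 8 above the filter) ran lower in Treg, at 103 to 194 in Treg KO and 119 to 174 in Treg WT, against 662 to 1215 in Tconv KO and 586 to 696 in Tconv WT. Eomes, Prf1, Klrb1c, Klrk1 and Gzma were lower in Treg, but the CD8 chain gene Cd8b1 was not. Cd8b1 averaged 73.3 in Treg KO, 60.8 in Treg WT, 67.4 in Tconv KO and 59.4 in Tconv WT. Cd8a, below the filter, was at most at 6.46 in any library. Myeloid markers (2 of 9) summed to 23.2 to 31.5 in Treg KO, 27.6 to 55.0 in Treg WT, 52.4 to 84.3 in Tconv KO and 44.7 to 53.2 in Tconv WT. Of the 2 above the filter, Itgam averaged 3.24 and 3.46 in Treg KO and WT, against 22.2 and 21.8 in Tconv. Cd68 averaged 18.4 and 26.0 in Treg KO and WT, against 30.5 and 22.0 in Tconv. Naive T cell markers summed to 6649 to 10589 in Treg KO and 9220 to 10970 in Treg WT, against 13778 to 21000 in Tconv KO and 18588 to 19516 in Tconv WT. Cell cycle markers summed to 1966 to 2407 in Treg KO against 1045 to 1736 in Tconv KO. In WT they overlapped, at 580 to 1037 in Treg and 537 to 626 in Tconv. The part of all these markers in the differences of Entpd1, Nt5e and P2rx7 was not tested.

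**Figure D2:**
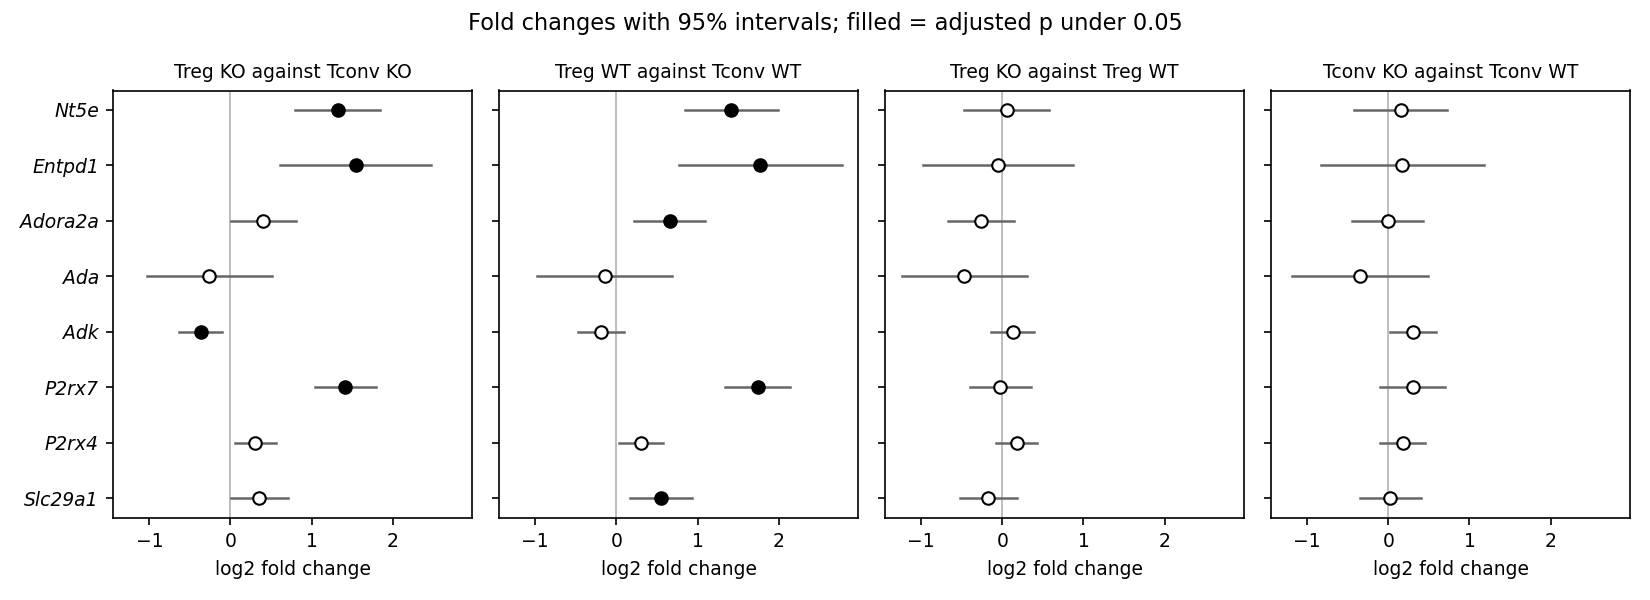
Log2 fold change of each member (x axis, scale of log2(value + 1)) with its 95% interval, for the comparisons of KO with WT and of Treg with Tconv; filled points passed an adjusted p of 0.05. Nt5e, Entpd1 and P2rx7 stand above 0 in both comparisons of Treg with Tconv, and the intervals of KO against WT in Treg include 0 for all 8 genes.

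Levels of different genes were set side by side per kilobase of the longest annotated transcript of each gene. Which transcripts these cells used is not known here, and the SDs below do not cover it, so close ranks are uncertain. On this scale Nt5e was the most abundant member in every group, with 639, 609, 274 and 227 normalised counts per kb in Treg KO, Treg WT, Tconv KO and Tconv WT. P2rx7 came second in Treg, at 412 per kb in KO and 417 in WT. In Tconv KO, P2rx7 (158) and Slc29a1 (147 per kb) did not differ beyond their SDs of 47.3 and 40.2, nor did they in Tconv WT, at 125 and 141 per kb with SDs of 22.8 and 17.8. Adora2a ranked 4 in all groups, between 107 and 170 per kb. Entpd1 reached 72.1 per kb in Treg KO and 74.0 in Treg WT, against 32.7 in Tconv KO and 21.6 in Tconv WT, where it and Ada, at 25.3, did not differ beyond their SDs of 3.58 and 5.07. Mean Nt5e per kb thus exceeded mean Entpd1 per kb in all 4 groups. Adk (41.9 to 59.4), P2rx4 (32.2 to 45.7) and Ada (18.1 to 25.3 per kb) filled the low end.

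**Figure D3:**
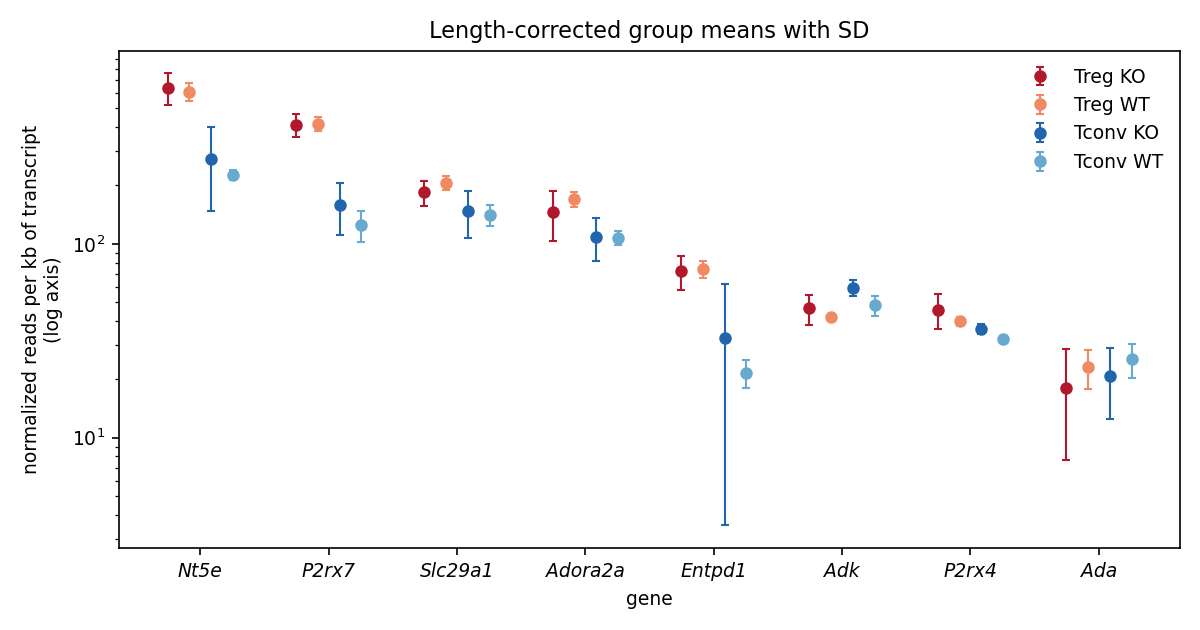
Mean normalised count per kilobase of the longest annotated transcript for each member in each group on a log axis, with SD over libraries (n = 4, 4, 4 and 3). Nt5e is highest in all groups, at 639 per kb in Treg KO and 609 in Treg WT, and Ada lies at 18.1 to 25.3 per kb.

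The comparison of KO with WT within a cell type covers genotype and sex together, which cannot be told apart here. In Treg, none of the 8 members passed the test, where 21.5% of all genes did. None did by edgeR or DESeq2 on the recovered reads either. None had an unadjusted limma p under 0.05, where 4108 of all 11314 genes did. Group means were 2552 ± 472 in Treg KO and 2434 ± 253 in Treg WT for Nt5e, 304 ± 59.7 and 312 ± 31.4 for Entpd1, and 2033 ± 271 and 2059 ± 177 for P2rx7 (SD, n = 4 each). The log2 fold changes were 0.05 ± 0.25 for Nt5e (adjusted p = 0.90, 95% interval -0.47 to 0.58), -0.06 ± 0.44 for Entpd1 (adjusted p = 0.94, -0.98 to 0.87) and -0.02 ± 0.18 for P2rx7 (adjusted p = 0.93, -0.40 to 0.35). The intervals of P2rx7 and, narrowly, Nt5e leave out a change of 1.5-fold in either direction, while that of Entpd1 does not. These intervals use 1 estimate of spread shared by all 4 groups, so their width does not describe the Treg libraries alone. For Entpd1 the coefficient of variation was 19.6% in Treg KO and 10.1% in Treg WT, but 89.2% in Tconv KO and 16.5% in Tconv WT.

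For the other members in Treg, Adora2a averaged 378 ± 109 in KO and 440.0 ± 40.3 in WT, Slc29a1 408 ± 59.9 and 457 ± 36.4, Ada 30.6 ± 17.6 and 38.9 ± 8.83, Adk 197 ± 35.1 and 178 ± 3.65, and P2rx4 178 ± 36.7 and 155 ± 8.86. Their adjusted p-values ran between 0.30 for P2rx4 and 0.48. KO and WT overlapped for all 8 members (0 of 8 separate, against 26.2% of all genes). Single Treg KO libraries stood apart for some members: 1 was low for Adora2a at 241, and another was low for Ada at 14.5 and for Adk at 145 but high for P2rx4 at 228. Removing a trend on GC content turned the sign of the difference for Nt5e, Adora2a, Adk and Slc29a1, and not for Ada, P2rx4, Entpd1 or P2rx7.

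In Tconv, where the Foxp3-driven recombinase is not active in most cells, none of the 8 members passed the test either, where 0.681% of all genes did. At an unadjusted limma p under 0.05 there was 1 of 8, Adk, with an adjusted p of 0.38, where 1358 of all 11314 genes were under it. Neither edgeR nor DESeq2 called any member. Adk averaged 252 ± 24.6 in Tconv KO and 204 ± 23.4 in Tconv WT, with 1 of 4 KO values inside the WT range. P2rx4 was the 1 member whose groups did not overlap, at 133 to 154 in Tconv KO and 123 to 128 in Tconv WT (16.3% of all genes did not overlap); its log2 fold change of 0.18 ± 0.13 had an adjusted p of 0.60.

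The Tconv KO libraries spread widely on several of these genes. The first of the 4 in the order printed was the highest for 6 of 8 members and the lowest for the other two, and the last was the lowest for 5. Entpd1 differed 9.28-fold between the highest and lowest library, Nt5e 3.22-fold, P2rx7 2.06-fold and Slc29a1 1.96-fold. For these 4 genes the coefficient of variation was highest in Tconv KO of the 4 groups, and for Adora2a, Ada, Adk and P2rx4 it was highest in Treg KO, for example 57.5% for Ada in Treg KO and 40.1% in Tconv KO. The median coefficient of variation of the 8 members was 28.6% in Tconv KO, beside 10.8% for all 8985 genes with a mean of at least 50. In Treg KO the same pair of medians was 19.1% and 13.8%, in Treg WT 8.88% and 6.91%, and in Tconv WT 12.1% and 6.32%.

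Summed Treg markers (Foxp3, Il2ra, Ctla4, Ikzf2, Tnfrsf18; 5 of 5 above the filter) moved with this spread: 4534 in the first Tconv KO library and 945 in the last, against 1358 to 1579 in Tconv WT and 17790 to 24758 in Treg. Ikzf2 made up most of the sum in the first library, at 3195, 1215, 1139 and 366 over the 4 Tconv KO libraries, whereas Foxp3 averaged 40.8. Cxcr5 and Pdcd1, markers of follicular helper T cells chosen after their values were seen, also ran with it, at 1245, 758, 491 and 268 for Cxcr5 and 1468, 853, 692 and 203 for Pdcd1. Naive markers (4 of 4 above the filter) summed to 13778 in the first library and 20953 in the last. Their part in the spread of Entpd1 and Nt5e was not tested.

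Leaving out the first Tconv KO library turned the KO against WT difference in Tconv to -0.37 for Entpd1 and -0.11 for Nt5e, against 0.17 and 0.15 with all libraries. Leaving out the last gave 0.69 and 0.45 (adjusted p = 0.35 and 0.29). Without the first library, Treg KO against Tconv KO also passed for Adora2a (log2 0.56, adjusted p = 0.026) and Slc29a1 (0.51, adjusted p = 0.016). Nt5e and P2rx7 remained higher in Treg without either, with log2 fold changes of 1.03 to 1.59 and 1.24 to 1.58. Entpd1 also kept its KO call, at 2.09 without the first (limma adjusted p = 9.98e-05) and 1.03 without the last (0.028).

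**Figure D4:**
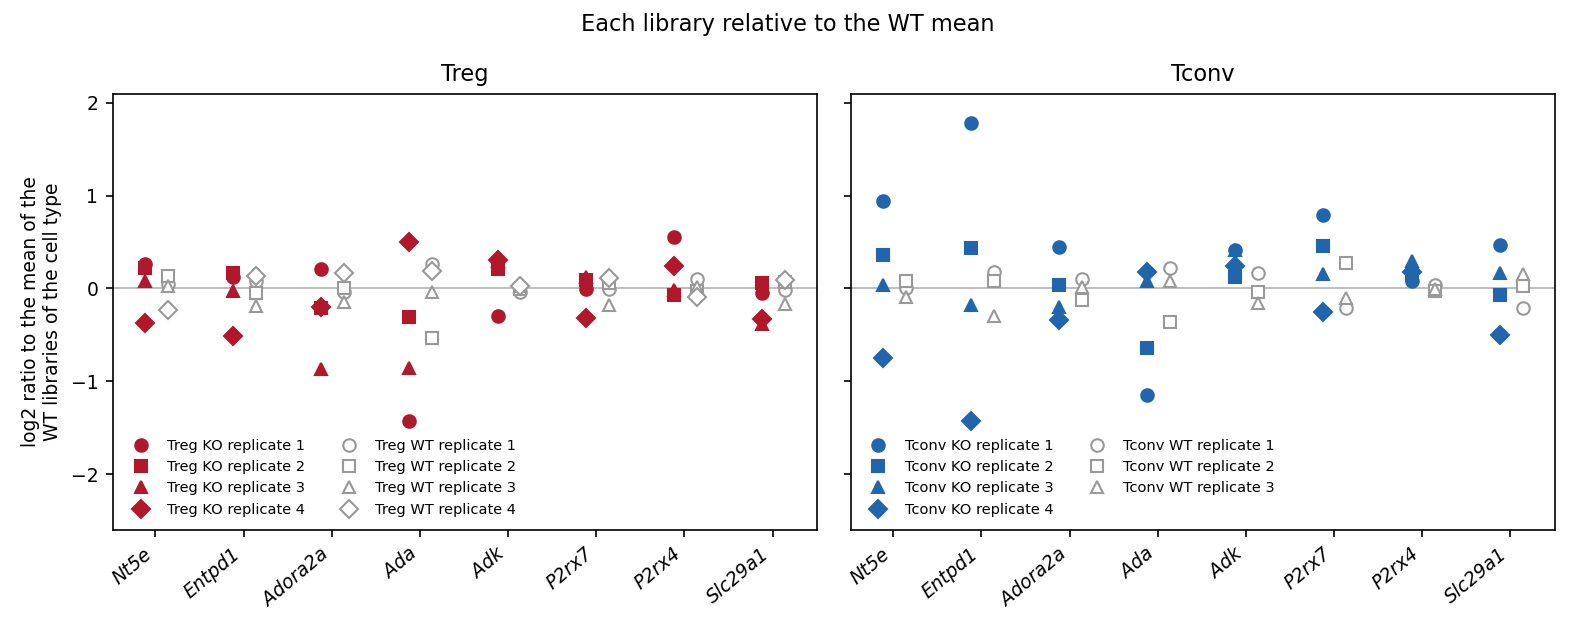
Log2 ratio of each library's normalised count to the WT mean of its cell type, for each member; KO and WT libraries are points, KO left of WT. Tconv KO libraries spread most for Entpd1, between -1.43 and 1.79.

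Whether the KO difference itself differed between Treg and Tconv was tested as an interaction. None of the 8 members passed by limma, edgeR or DESeq2, where 0.150% of all genes did by limma. None had an unadjusted limma p under 0.05, where 963 of all 11314 genes did. The estimates ran between -0.32 for P2rx7 (95% interval -0.87 to 0.23, adjusted p = 0.76) and 0.00 for P2rx4 (-0.37 to 0.37). For Entpd1 the interval was -1.59 to 1.14, so a large difference in either direction was not detectable with these libraries.

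Other genes of purine signalling were taken as lists by function. Of 79 further genes, 72 were in the table and 45 passed the filter. Against Tconv, 9 of the 45 were higher and 9 lower in Treg KO, where 15.8% and 15.6% of all genes were, and 6 were higher and 6 lower in Treg WT, where 10.0% and 8.06% of all genes were. There were 10 called in both, all in the same direction in both, which is 55.6% of the 18 KO calls and 83.3% of the 12 WT calls. Here too the share over all genes was not counted. Calls of these further genes, here and below, rest on the main limma fit, and the alternatives were not examined for them gene by gene. The median log2 fold change of the 45 was 0.09 in KO and 0.08 in WT, beside -0.01 and -0.02 over all genes.

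On the list of ectoenzymes and related family members, genes other than Entpd1 and Nt5e went both ways. Acpp, an acid phosphatase with a membrane form that also makes adenosine from AMP, averaged 107 ± 12.4 in Treg KO and 85.1 ± 10.3 in Treg WT, against 266 ± 73.6 in Tconv KO and 235 ± 11.4 in Tconv WT. It was lower in Treg by log2 fold changes of -1.27 ± 0.17 in KO (adjusted p = 4.0e-05) and -1.47 ± 0.18 in WT (adjusted p = 3.3e-05). Entpd5, which cleaves nucleoside diphosphates, was also lower (-0.70 in KO and -0.74 in WT). Dpp4, the CD26 peptidase that binds adenosine deaminase in humans, was higher (0.61 in KO and 0.60 in WT). Alpl, the tissue-nonspecific alkaline phosphatase, chosen after its values were seen, had 13.1, 27.9, 2.15 and 4.01 normalised counts in Treg KO and 19.9, 12.4, 19.2 and 33.7 in Treg WT, and at most 1.97 in Tconv; its log2 fold change was 2.40 in KO (adjusted p = 0.0094) and 3.32 in WT (adjusted p = 0.0027).

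Among P2Y receptors, P2ry1, a receptor for ADP, was nearly absent from Treg. It averaged 2.09 in Treg KO and 0.317 in Treg WT, against 24.2 in Tconv KO and 19.2 in Tconv WT, with adjusted p of 1.4e-04 in KO and 9.0e-05 in WT. P2ry10, named with this family but known as a lysophosphatidylserine receptor, was higher in Treg (log2 1.22 in KO and 1.35 in WT). Gjb2, the channel protein connexin 26, was higher by 2.89 in KO and 3.42 in WT, with 30.8 to 53.9 normalised counts in Treg KO, 35.5 to 57.9 in Treg WT, 1.11 to 11.4 in Tconv KO and 1.81 to 4.74 in Tconv WT. Lrrc8a, a subunit of the volume-regulated anion channel, was lower (-0.72 and -0.56 in KO and WT).

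Inside the cell, Ahcyl2, related to the enzyme that splits S-adenosylhomocysteine into adenosine and homocysteine, was higher in Treg (log2 1.13 in KO, adjusted p = 1.7e-06, and 1.31 in WT, adjusted p = 1.0e-06). Ampd1, an AMP deaminase, was lower (-3.06 in KO and -2.84 in WT), at 1.34 to 13.3 normalised counts in Treg KO, 5.52 to 9.59 in Treg WT, 26.2 to 80.8 in Tconv KO and 56.9 to 64.8 in Tconv WT.

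**Figure D5:**
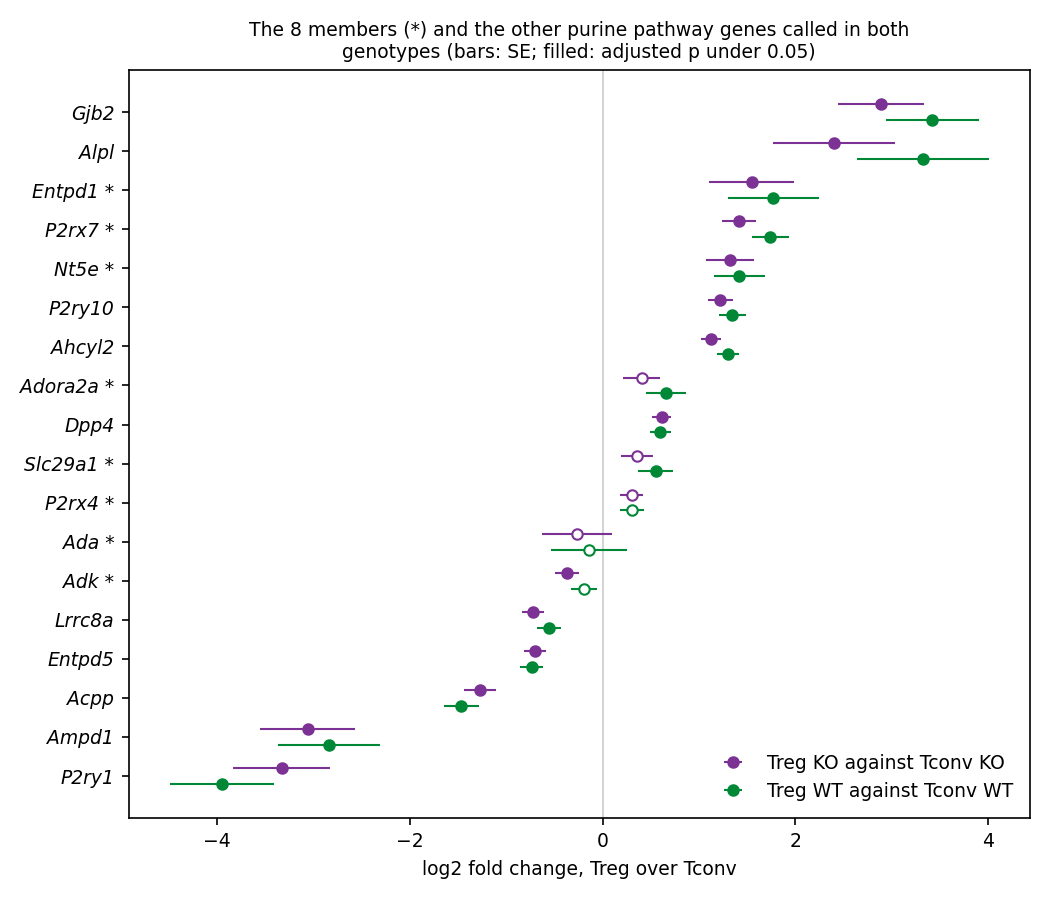
Log2 fold change of Treg over Tconv in KO (purple) and in WT (green) for the 8 members, marked with an asterisk, and the 10 other purine pathway genes called in both genotypes; bars are SE and filled points passed an adjusted p of 0.05. Gjb2 and Alpl lie highest and Ampd1 and P2ry1 lowest.

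Within Treg, 5 of the 45 further genes were higher and 3 lower in KO than in WT, where 10.4% of all genes tested were higher and 11.1% lower. Genotype, sex and block of sample numbers again cannot be told apart. Summed cell cycle markers (8 of 8 above the filter) also differed between KO and WT, at 1966 to 2407 in Treg KO and 580 to 1037 in Treg WT. Their part in these differences was not tested. Slc29a3, a nucleoside transporter of lysosomes, was higher at 371 ± 31.4 in Treg KO against 292 ± 12.9 in Treg WT (log2 0.34 ± 0.08 SE, adjusted p = 0.0088). Slc17a9, which loads ATP into vesicles, was lower at 314 ± 106 against 503 ± 58.1 (log2 -0.74 ± 0.20 SE, adjusted p = 0.019). P2ry10 was higher by 0.38 (adjusted p = 0.045). The other 5 called genes were chosen after their values were seen. Enpp5, of the ectonucleotide pyrophosphatase family, was higher at 111 ± 27.5 in Treg KO against 53.0 ± 10.1 in Treg WT (log2 1.04 ± 0.25 SE, adjusted p = 0.011), the largest change of the 8. Ak3, an adenylate kinase of mitochondria, and Hprt, which salvages hypoxanthine and guanine, were higher by 0.27 and 0.30, and Nt5c, a cytosolic nucleotidase, and Aprt, which salvages adenine, had log2 fold changes of -0.46 and -0.37. Whether these 8 calls hold under the alternatives was not examined. With the GC trend removed, all genes called in Treg KO against Treg WT fell from 2431 to 1517. In Tconv none of the 45 passed between KO and WT, and none did for the interaction, by limma.

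Genes whose pattern lay closest to each ectoenzyme were ranked over all 15 libraries by the root mean square difference of log2 values, each centred on its own mean, among 8565 genes. Mdfic came closest to Nt5e, at 0.129 on the log2 scale, then Osbpl3 at 0.157, beside a spread of Nt5e itself of 0.765; P2rx7 ranked 17 at 0.221. Ptger2, which encodes the EP2 receptor for prostaglandin E2, came closest to Entpd1 at 0.234, then Serpina3g at 0.295, beside a spread of Entpd1 of 1.03. Ptger2 averaged 552 in Treg KO, 578 in Treg WT, 226 in Tconv KO and 167 in Tconv WT, and Nt5e ranked 9 for Entpd1 at 0.346. The ranking pools all 4 groups and was not made within a group.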

How the data were processed

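The authors deposited 1 table of 15 libraries whose values, of the unit signal, are gene counts divided by 1 size factor per library; 100% of values gave whole reads within 0.001. Per the submitters' processing notes, TopHat and build mm10 were used (versions and counter: not given in the sources). The values were fitted as log2(value + 1) with limma 3.58.1 (R 4.3.3; all 4 groups in 1 fit, 5 comparisons, variance trend, two-sided, Benjamini-Hochberg, threshold 0.05) on 11314 genes with at least 10 in at least 3 libraries. Alternatives were edgeR 4.0.16 and DESeq2 1.42.0 on the recovered reads, TMM factors, pseudocounts 0.1 and 8, other filters, GC trend removal, thinning, library weights, only the groups compared and each library left out; leaving out both extreme Tconv KO libraries was added after seeing the data. Coordinates and lengths, those of the longest transcript of each gene, are from GENCODE (GRCm38) by symbol. Scripts were tested on simulated data. Members and gene lists were chosen with earlier results of these data known. Named are the members, up to 3 called genes per list with the smallest p, and the nearest genes to Nt5e and Entpd1. Read limits cover counting error only.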

Additional observations from a re-analysis of the deposited data

How the results depend on the processing

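No paired analysis was possible because the labels give each library a number of its own, share none between groups and do not say that neighbouring numbers come from 1 animal. Nt5e and P2rx7 kept their calls in both comparisons of Treg with Tconv under every alternative run. Of 1067 values of members under alternatives, 984 kept direction and side of the threshold, 24 fell below it, 14 passed it and 45 changed sign, none of them called. Ada could not be tested with a mean of at least 50.
Members called in Treg WT against Tconv WT numbered 5 (2 to 6 with 1 library left out), and in Treg KO against Tconv KO 4, or 2 with only the groups compared and 6 without the GC trend (3 to 6 with 1 library left out). All genes called in Treg KO against Treg WT numbered 2431, and 1517 without the GC trend (1394 to 2741 with 1 library left out). In Tconv KO against Tconv WT there were 77, and 236 with DESeq2, 32 with only the groups compared, 307 with library weights and 24 with the middle pair of Tconv KO libraries (22 to 249 with 1 left out). Treg WT against Tconv WT gave 2046, and 3990 with only the groups compared and 4330 with weights. Treg KO against Tconv KO gave 3558, and 2042 with only the groups compared. The interaction gave 17, and 91 with DESeq2, 11 thinned, 56 with weights and 10 with the middle pair (3 to 23 with 1 left out). The cause was not tested.
Signs changed in Treg KO against Treg WT without the GC trend for Nt5e (-0.0239), Adora2a (0.12), Adk (-0.0637) and Slc29a1 (0.0195), and thinned for Entpd1 (0.0149). In Tconv they changed for Adora2a with edgeR (0.0091), DESeq2 (0.0125), no GC trend (0.16) and thinning (0.0514), and with weights for Entpd1 (-0.0137) and Slc29a1 (-0.0186). The interaction of P2rx4 was 0.0032 with edgeR, 0.0206 with DESeq2 and 0.0015 with pseudocount 8. With 1 library left out, Treg KO against WT ran between -0.0205 and 0.19 for Nt5e, -0.13 and 0.0935 for Entpd1, and -0.0832 and 0.0732 for P2rx7. Tconv KO against WT ran between -0.11 and 0.45 for Nt5e, -0.37 and 0.69 for Entpd1, -0.16 and 0.10 for Adora2a, and -0.13 and 0.20 for Slc29a1. Ada in Treg against Tconv ran between -0.59 and 0.0266 in KO and -0.31 and 0.0195 in WT. The interaction ran between -0.39 and 0.17 for Nt5e, -0.75 and 0.31 for Entpd1, -0.45 and 0.17 for Ada, and -0.13 and 0.0803 for P2rx4. Treg KO libraries were the shallowest on average.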
